A study of Mus musculus with 2 samples.

Results

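The genes described here are 5 facilitative glucose transporters (Slc2a1, Slc2a3, Slc2a4, Slc2a8 and Slc2a12) and 3 hexokinases (Hk1, Hk2 and Hk3). They were chosen by gene symbol, by a rule with no threshold on a measured value, and are 8 of the 55536 annotated mouse genes in the gene tables. Their 63 annotated transcripts were followed in both transcript tables. Total RNA was sequenced from whole hearts of 2 adult female mice, 8 to 10 months old. The strain was B6CASTF1/J, whose animals are F1 hybrids that carry 1 C57BL/6J and 1 CAST/EiJ genome. There was 1 group, with no treatment and no control, and 300 ng of RNA with ERCC spike-ins went into each ribosomal-RNA-depleted library. Replicate 1 is the mouse numbered 1 in the labels and replicate 2 the mouse numbered 3.

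Facilitative transporters of the GLUT family let glucose cross membranes down its gradient. In muscle cells GLUT4, the product of Slc2a4, is held in vesicles that insulin and contraction bring to the cell surface. A hexokinase then phosphorylates the sugar to glucose 6-phosphate, which cannot leave through the transporter and enters glycolysis, glycogen synthesis or the pentose phosphate pathway. HK1 and HK2 can dock on the mitochondrial outer membrane through a short N-terminal segment that binds the voltage-dependent anion channel; HK3 lacks that segment.

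Expected counts summed to 42223411 in the gene table of replicate 1 and to 40553237 in that of replicate 2. All 7 cardiomyocyte markers were at 1 TPM (transcripts per 1000000) or more in both animals, led by Myh6 at 8814 and 7761 TPM, and their summed level was 30266 TPM in replicate 1 and 26059 TPM in replicate 2. Markers of fibroblasts (7 of 7), endothelial cells (8 of 8), smooth muscle (4 of 4) and macrophages (8 of 8) were above the same level. So were 5 of 7 red cell markers, and that list summed to 3479 TPM in replicate 1 and 2255 TPM in replicate 2. The values are therefore those of mixed tissue that holds blood. In such bulk RNA fewer cells of a type and less RNA per cell cannot be told apart. With 2 animals of 1 group an exact two-sided sign-flip test could go no lower than 0.5, so every statement is a description of these hearts and carries no p-value. Values with an error are means ± SD (n = 2 animals), and ratios between the animals are replicate 1 over replicate 2.

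Slc2a4 and Hk2 stood far above the other genes of their families, Hk1 was intermediate, Slc2a12, Slc2a8 and Slc2a1 lay close together near 6 TPM, and Slc2a3 and Hk3 were under 1 TPM. In all, 6 of the 8 genes reached 1 TPM in both animals, against 20.9% of all annotated genes. By posterior mean TPM 7 did, since Slc2a3 was at 1.64 and 1.33 TPM on that scale. The order of mean gene TPM was Slc2a4, Hk2, Hk1, Slc2a12, Slc2a8, Slc2a1, Slc2a3 and Hk3. A pair of neighbours was read as different where both animals' values and both deposited credibility intervals stood apart, which held for 4 of 7 pairs. These were Slc2a4 over Hk2 (1.21-fold), Hk2 over Hk1 (3.75-fold), Hk1 over Slc2a12 (6.02-fold) and Slc2a1 over Slc2a3 (6.69-fold). The pairs Slc2a12 and Slc2a8, Slc2a8 and Slc2a1, and Slc2a3 and Hk3 could not be ordered beyond their spread. The fold of Slc2a4 over Hk2 depends on the quantity, as given below for Hk2.

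**Figure D1:**
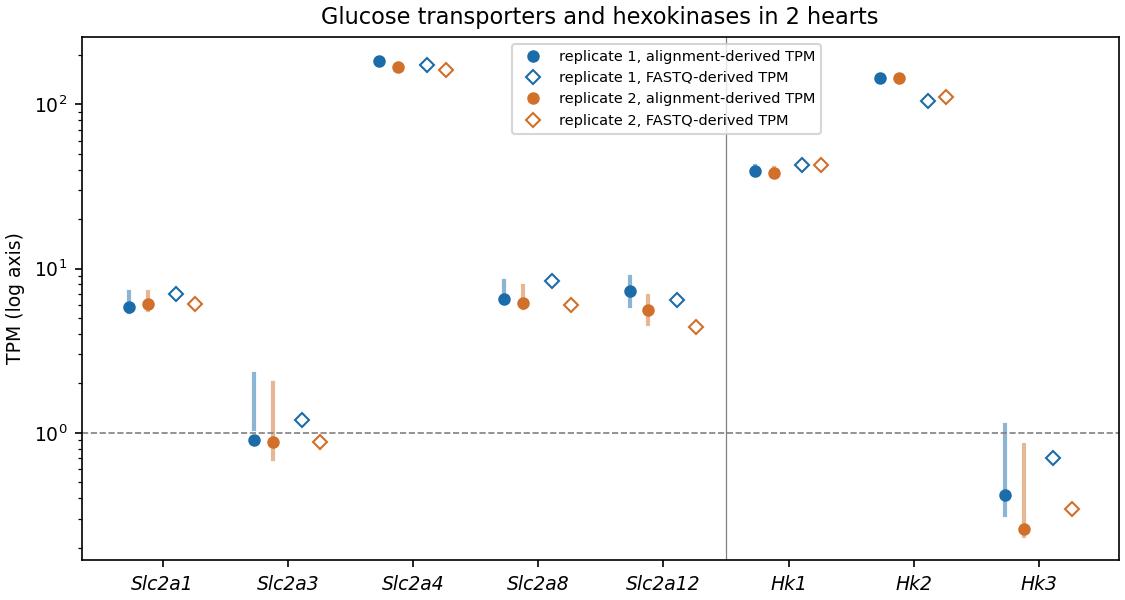
TPM of the 8 genes (y, log axis) in each heart, from the alignment-derived gene tables (filled circles, with the deposited credibility bounds as bars) and the FASTQ-derived tables (open diamonds). Slc2a4 and Hk2 lie above 100 TPM in every table, while Slc2a3 and Hk3 lie near or below the dashed line at 1 TPM.

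Slc2a4, the insulin-responsive transporter (chr11:69942539-69948188, minus strand, mm10), was at 183.68 TPM in replicate 1 and 167.56 TPM in replicate 2, from 14555 and 13537 expected counts. Its mean of 176 ± 11.4 TPM ranked 368 among all genes and exceeded that of 96.8% of the genes at 1 TPM or more. It held 90.0% of the summed TPM of the 5 transporters in both animals. Against Slc2a12, the next transporter in the order, its log2 ratio of TPM was 4.66 and 4.91, a 27.6-fold mean difference. Almost all of it was 1 transcript: Slc2a4-201 held 95.6% and 97.0% of the gene's TPM. GLUT4 is also made by fat and skeletal muscle. Of the adipocyte markers 2 of 6 reached 1 TPM in both animals, with a sum of 11.9 and 8.49 TPM led by Cfd at 7.56 and 4.93 TPM and Plin1 at 1.63 and 1.18 TPM; Lep was the lowest, at 0.02 and 0.03 TPM. Of the skeletal muscle markers 3 of 6 did, with a sum of 12.9 and 14.0 TPM. The part of these cells in the Slc2a4 level was not tested.

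Slc2a1, the basal transporter GLUT1 (chr4:119108711-119137983, plus strand, mm10), was at 5.84 and 6.07 TPM from 533 and 554 expected counts, and at 6.96 and 6.12 TPM in the FASTQ-derived tables. It held 3.06% ± 0.28 of transporter TPM. Its level was split between transcripts. The coding transcript Slc2a1-201 held 3.74 and 3.72 TPM, which are 64.2% and 61.3% of the gene. Slc2a1-204, which the annotation labels as a target of nonsense-mediated decay, held 1.80 and 2.06 TPM, or 30.9% and 33.9%. In the FASTQ-derived tables it held 2.29 and 2.52 TPM, or 32.9% and 41.2%. A 633-base coding transcript, Slc2a1-203, held 21.6% of Slc2a1 TPM in replicate 1 there, from 22.6 counts, and nothing in replicate 2. In the alignment-derived tables protein-coding transcripts alone gave Slc2a1 4.03 and 4.01 TPM. The annotated coding length is 519 bases in Slc2a1-204 and 1476 bases in Slc2a1-201.

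Of the 31-base words of Slc2a1-204, 29 occur in no other Slc2a1 transcript, so few reads can tell it apart. GLUT1 is known from endothelium, whose markers were present. The 8 endothelial markers summed to 216 TPM in replicate 1 and 169 TPM in replicate 2, with Pecam1 at 43.9 and 32.3 TPM. These sums are not centred, and the median compared gene was itself higher in replicate 1, by a log2 ratio of 0.18. Slc2a1 was slightly lower in replicate 1 by alignment-derived TPM. By FASTQ-derived TPM Slc2a1 was higher in replicate 1, and its centred log2 ratio, as defined below, was 0.04. Its FASTQ-derived counts were nearly equal, at 582 and 581. Slc2a1-203 was the only Slc2a1 transcript with a higher FASTQ-derived TPM in replicate 1. The part of endothelial cells in the Slc2a1 level was not tested.

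Slc2a8 and Slc2a12 encode GLUT8, which sits mainly on membranes inside the cell, and GLUT12, a transporter found in insulin-responsive tissues. Slc2a8 (chr2:32972990-32982083, minus strand, mm10) was at 6.50 and 6.19 TPM from 407 and 402 expected counts. Its main transcript Slc2a8-201 was at 5.63 and 5.62 TPM, so the animals were closer there than in the gene total. In the FASTQ-derived tables the gene was at 8.41 and 6.0 TPM. The 360-base transcript Slc2a8-208 held 2.45 TPM of this in replicate 1, from 14.3 counts, and nothing in replicate 2.

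Slc2a12 (chr10:22645011-22704285, plus strand, mm10) was at 7.28 TPM in replicate 1 and 5.57 TPM in replicate 2, from 771 and 653 expected counts. Slc2a12-201 held 75.7% and 83.8% of its TPM. The noncoding Slc2a12-202, 398 bases long, held 24.3% and 16.2% of the TPM although it took only 2.31% and 1.40% of the gene's counts. By counts the animals were closer: the centred log2 ratio, as defined below, was 0.07 on expected counts + 0.5 and 0.20 on TPM + 0.1. Of the 31-base words of Slc2a12-201, 9.11% also occur in Tbpl1, a gene on the opposite strand whose exons share 407 bases with it and which was at 6.47 and 6.77 TPM. The library kit was directional, but the sources used here do not give the strand setting of the counting, so reads of that overlap may be shared.

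Slc2a3 encodes GLUT3, a high-affinity transporter known from neurons, platelets and white blood cells. The animals were alike in its TPM but not in its counts. The gene (chr6:122727809-122801640, minus strand, mm10) was at 0.90 TPM in replicate 1 and 0.88 TPM in replicate 2, but from 108 and 47 expected counts, a ratio of 2.30. The FASTQ-derived tables gave 128 and 58.6 counts, a ratio of 2.18, and 1.2 and 0.88 TPM. The deposited effective length by which the counts are divided was 3579 bases in replicate 1 and 1580 bases in replicate 2. Effective lengths that differed 2-fold or more between the animals occurred in 0.856% of the genes with 20 counts or more.

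The length difference followed the transcript assignment of Slc2a3. The 3959-base transcript Slc2a3-201 was at 0.78 and 0.30 TPM, from 101 and 39.3 counts. The 315-base transcript Slc2a3-208, labelled as a target of nonsense-mediated decay, had 0 counts in replicate 1 and 3.24 in replicate 2. Those 3.24 counts carried 0.44 TPM, or 50.6% of the gene in replicate 2. The FASTQ-derived tables gave Slc2a3-208 no count in either animal and placed 3.01 counts in replicate 2 on the 418-base Slc2a3-207. The 601-base coding transcript Slc2a3-202 was at 0.09 and 0.12 TPM in the alignment-derived and 0.41 and 0.13 TPM in the FASTQ-derived tables. In the alignment-derived tables protein-coding transcripts alone gave 0.87 and 0.42 TPM, so that the animals differed by TPM too once the short decay-labelled transcript was left out. The credibility bounds of the gene were 1.06 and 2.28 TPM in replicate 1, above its plain TPM, and 0.69 and 2.02 TPM in replicate 2.

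Markers of neutrophils and of neurons and glia were low, and those of platelets and macrophages were present. The 8 macrophage markers all reached 1 TPM in both animals and summed to 82.2 and 68.2 TPM. None of the 8 neutrophil markers and none of the 6 neuron and glia markers reached 1 TPM in both animals. The neutrophil sum was 1.81 and 1.29 TPM with Mpo, Elane and Camp at 0 counts, and the neuron and glia sum was 2.48 and 1.74 TPM. Platelet markers reached 1 TPM in 3 of 5 cases and summed to 22.1 TPM in replicate 1 and 13.9 TPM in replicate 2, led by Pf4 at 11.4 and 8.88 TPM and Ppbp at 7.98 and 3.33 TPM. By centred TPM, as defined below, all 5 platelet markers were on the replicate 1 side of the median gene, Gp9 by only 0.0005. Slc2a3 was on that side by expected counts (1.02) but not by the centred TPM used for the markers (-0.15). Markers of red cells (7 of 7), endothelium (7 of 8) and fibroblasts (6 of 7) also leaned to replicate 1 by centred TPM. Cardiomyocytes had 4 of 7 markers on that side, Myh6 by only 0.0006, adipocytes 4 of 6 and macrophages 4 of 8. Neutrophils, with 3 markers at 0 counts, had 2 of 8, neurons and glia 2 of 6, smooth muscle 1 of 4 and skeletal muscle 0 of 6. The part of any of these cells in the difference was not tested.

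Hk2, the hexokinase of insulin-responsive muscle (chr6:82725025-82774454, minus strand, mm10), was at 144.98 TPM in replicate 1 and 145.09 TPM in replicate 2, from 19551 and 19031 expected counts. It held 78.8% ± 0.41 of the TPM of the 3 hexokinases, and Hk1 held 21.2% and 20.8%. The FASTQ-derived tables gave Hk2 less, 105 and 110 TPM, although they gave it more counts, 21215 and 20461. The tables differed in the minor transcripts. Hk2-201, which carries the whole coding sequence, was at 103.59 and 99.56 TPM in the alignment-derived tables and 99.1 and 93.1 TPM in the FASTQ-derived ones. Hk2-202, a noncoding transcript of 594 bases, was at 40.54 and 45.34 TPM in the alignment-derived tables. The FASTQ-derived tables gave it 0 and 3.55 TPM. The coding transcript Hk2-204, 2792 bases long, was at 0 TPM in the alignment-derived tables and at 4.87 and 13.6 TPM in the FASTQ-derived ones, from 491 and 1340 counts.

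Both exons of Hk2-202 lie inside the last exon of Hk2-201, overlap none of its coding bases, and hold 27 words of 31 bases that no other Hk2 transcript has. It took 3.45% and 3.99% of the gene's expected counts but 28.0% and 31.3% of its TPM. Values that rest on the Hk2 gene total move with it. The log2 ratio of Hk2 over Hk1 was 1.91 ± 0.03 by gene TPM, 1.34 ± 0.05 by FASTQ-derived TPM and 1.40 ± 0.02 over protein-coding transcripts, a 3.75-fold, 2.52-fold and 2.65-fold difference. The log2 ratio of Slc2a4 over Hk2 was 0.27 ± 0.09, 0.63 ± 0.12 and 0.77 ± 0.05 in the same order. Hk2 stayed above Hk1, and Slc2a4 above Hk2, in both animals by these 3 quantities. By expected counts, which are not divided by length, the log2 ratio of Slc2a4 over Hk2 turned to -0.43 in replicate 1 and -0.49 in replicate 2. The summed transporters over the summed hexokinases had a log2 ratio of 0.15 in replicate 1 and 0.02 in replicate 2 by gene TPM.

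Hk1, the most widely expressed hexokinase (chr10:62268855-62379908, minus strand, mm10), was at 39.23 and 38.08 TPM from 5025 and 4949 expected counts. The FASTQ-derived tables gave it 42.5 and 42.6 TPM. The animals and the tables were close on the gene total, but the tables assigned it to different transcripts. In the alignment-derived tables Hk1-202 was at 25.31 and 25.11 TPM, Hk1-201 at 10.17 and 9.02 TPM, and Hk1-205 at 2.23 and 2.89 TPM. In the FASTQ-derived tables Hk1-202 was at 6.51 and 8.24 TPM, Hk1-201 at 21.9 and 20.3 TPM, and Hk1-205 at 12.6 and 12.2 TPM. Hk1-202 therefore led in one kind of table, with 65.2% ± 0.99 of Hk1 TPM, and Hk1-201 in the other, with 49.6% ± 2.68. Of 31-base words that no other Hk1 transcript has, Hk1-202 has 774, Hk1-205 has 14 and Hk1-201 has 0. Which transcript led cannot be settled from these tables.

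The 3 Hk1 transcripts begin at different sites and differ in the first codons, the part of the protein that holds the mitochondrial docking segment in HK1 and HK2. Their first coding exons are shown beside those of Hk2 and Hk3 because the transcript assignment decides which N-terminus the Hk1 reads stand for. All are on the minus strand of mm10 and were read from GENCODE M21 transcripts. The Hk1-202 exon lies at chr10:62340013-62340075, the Hk2-201 exon at chr6:82773918-82773980, the Hk1-205 exon at chr10:62342501-62342560 and the Hk3-201 exon at chr13:55019328-55019423. For Hk1-201 the first 2 coding exons are joined, the outermost bases of which are 62353058 and 62358362 of chromosome 10. In the Hk1-202 and Hk2-201 lines capitals mark positions at which these 2 exons have the same base, and in the other lines capitals mark the start codon.
Hk1-202 first coding exon: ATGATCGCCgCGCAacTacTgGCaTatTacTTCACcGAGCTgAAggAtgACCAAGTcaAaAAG
Hk2-201 first coding exon: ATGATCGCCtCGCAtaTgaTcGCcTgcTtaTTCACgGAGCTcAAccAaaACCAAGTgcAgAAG
Hk1-201 first and second coding exons: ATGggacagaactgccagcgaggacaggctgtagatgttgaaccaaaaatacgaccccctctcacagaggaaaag
Hk1-205 first coding exon: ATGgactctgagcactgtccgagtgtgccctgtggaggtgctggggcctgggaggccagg
Hk3-201 first coding exon: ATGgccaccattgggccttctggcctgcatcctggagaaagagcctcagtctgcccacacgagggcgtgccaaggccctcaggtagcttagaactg

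The exons of Hk1-202 and Hk2-201 are both 63 bases, or 21 codons, long and were identical at 43 positions (68.3%). Hk1-201 starts with 75 bases in their place and also has an internal exon of 69 bases, or 23 codons, that Hk1-202 lacks (chr10:62291975-62292043, minus strand, mm10). Its coding length is accordingly 2835 bases, against 2754 bases in Hk1-202.
Hk1-201 internal exon absent from Hk1-202: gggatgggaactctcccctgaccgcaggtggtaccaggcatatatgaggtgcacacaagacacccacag

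Hk1 has further starts upstream. The first base of Hk1-201 lies 17820 bases and that of Hk1-203 lies 39366 bases upstream of the first base of Hk1-202. Of the 20 annotated Hk1 transcripts, the 12 that start upstream of Hk1-201 had 0 expected counts in both animals, against 9974 for the other 8 over both animals. Their FASTQ-derived counts were 0 when rounded to 2 decimals. RefSeq (GRCm38.p6, which is mm10) lists promoter windows at both ends of this range, each from 250 bases before a start to 50 after it. They are shown because Hk1-202 starts inside the proximal window (chr10:62340372-62340671, minus strand, 63.3% G and C) and Hk1-203 inside the distal one (chr10:62379859-62380158, minus strand, 51.3% G and C). The Hk2 window (chr6:82774405-82774704, minus strand, 67.3% G and C), in which Hk2-201 starts, stands beside them. Capitals mark the GC box, spelled GGGCGG, and the CCAAT box, spelled as its name, on either strand; no match overlaps another in these windows.
Hk1 proximal: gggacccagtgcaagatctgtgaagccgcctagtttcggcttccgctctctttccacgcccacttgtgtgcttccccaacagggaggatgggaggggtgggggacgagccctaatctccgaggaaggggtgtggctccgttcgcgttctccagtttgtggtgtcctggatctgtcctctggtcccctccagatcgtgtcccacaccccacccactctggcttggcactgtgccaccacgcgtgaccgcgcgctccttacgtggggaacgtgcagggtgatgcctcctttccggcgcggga
Hk1 distal: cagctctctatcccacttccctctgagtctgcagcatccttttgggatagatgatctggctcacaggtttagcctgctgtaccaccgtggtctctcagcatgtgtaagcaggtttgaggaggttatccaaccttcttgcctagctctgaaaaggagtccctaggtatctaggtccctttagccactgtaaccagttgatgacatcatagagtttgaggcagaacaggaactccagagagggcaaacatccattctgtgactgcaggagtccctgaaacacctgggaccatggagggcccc
Hk2: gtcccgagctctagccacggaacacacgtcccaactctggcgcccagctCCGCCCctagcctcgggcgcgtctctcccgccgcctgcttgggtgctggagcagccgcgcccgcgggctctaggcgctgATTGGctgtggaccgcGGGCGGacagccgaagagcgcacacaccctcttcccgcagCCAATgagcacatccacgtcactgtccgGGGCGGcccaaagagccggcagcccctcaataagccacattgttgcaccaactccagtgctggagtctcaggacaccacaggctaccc

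The Hk2 window holds 3 GC boxes and 2 CCAAT boxes, and neither Hk1 window holds either motif. Of all 32851 RefSeq windows of the same length, 35.7% hold a GC box and 37.4% a CCAAT box. The E-box CACGTG (7.15% of all windows) was in none of the 7 windows of the 6 genes that matched. The TATA box TATAAA (13.6% of all windows) was in that of Slc2a1 alone. The Slc2a1 window holds 2 GC boxes and 1 CCAAT box, the Slc2a8 window 5 CCAAT boxes of which a pair on opposite strands overlap, and those of Slc2a12 and Hk3 none of the 4 motifs. These letters describe the windows only. For Hk1, 2.99% of the 31-base words of Hk1-202 also occur in the antisense gene Hk1os, which had 3 and 2 counts.

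Hk3, known from white blood cells, was near the limit of the data. The gene (chr13:55005985-55021385, minus strand, mm10) was at 0.42 TPM in replicate 1 and 0.26 TPM in replicate 2, from 22 and 17 expected counts. The credibility bounds were 0.32 and 1.11 TPM in replicate 1 and 0.23 and 0.84 TPM in replicate 2, and they overlap. The FASTQ-derived tables gave 23 counts in each animal and 0.70 and 0.34 TPM. The counts were spread over several transcripts, and none led in both animals: in the alignment-derived tables Hk3-201 held 18.6 counts in replicate 1 and Hk3-202 held 16.0 in replicate 2. The FASTQ-derived tables placed 18.0 counts of replicate 1 on Hk3-208 and 22.0 of replicate 2 on Hk3-202. The short transcripts Hk3-205, Hk3-206 and Hk3-207 held between 0 and 3.00 counts per animal in either kind of table. Macrophage markers were present (8 of 8, summed to 82.2 and 68.2 TPM, led by Lyz2 at 34.4 and 26.9 TPM), whereas neutrophil markers were at the levels given for Slc2a3. Their part in the Hk3 level was not tested.

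The animals differed little in these genes. To compare them, the log2 ratio of TPM + 0.1 was taken relative to its median, 0.18, over genes with a mean of at least 1 TPM and at least 20 counts in the libraries together. Of the 6 genes that passed these limits, 0 were 2-fold apart, against 1.41% of the compared genes. For all 6 the animals lay within 1.2-fold of each other, as they did for 73.6% of the compared genes, so this is the state of most genes in these libraries. The centred log2 ratio was -0.05 for Slc2a4, -0.11 for Slc2a8, -0.14 for Hk1, -0.18 for Hk2, -0.24 for Slc2a1 and 0.20 for Slc2a12. Slc2a12 alone was on the replicate 1 side of the centre by this quantity. By FASTQ-derived TPM Slc2a12 (0.40), Slc2a8 (0.33) and Slc2a1 (0.04) were. Without centring the log2 ratio was 0.38 for Slc2a12, 0.13 for Slc2a4 and between -0.05 and 0.07 for the other 4. The 22 ERCC spike-ins with 100 counts or more in each library had a median of 0.21, which leaves Slc2a12 alone above it by gene TPM.

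Slc2a3 and Hk3 did not reach the TPM limit. By expected counts + 0.5 with a limit of 20 counts, Slc2a3 had a centred log2 ratio of 1.02, and 1 of 8 genes was 2-fold apart, against 3.61% of 15305 genes in either direction and 1.58% in the direction of replicate 1. The FASTQ-derived counts gave 0.93, just under 2-fold. Hk3 had 0.19 by expected counts and -0.18 by FASTQ-derived counts.

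**Figure D2:**
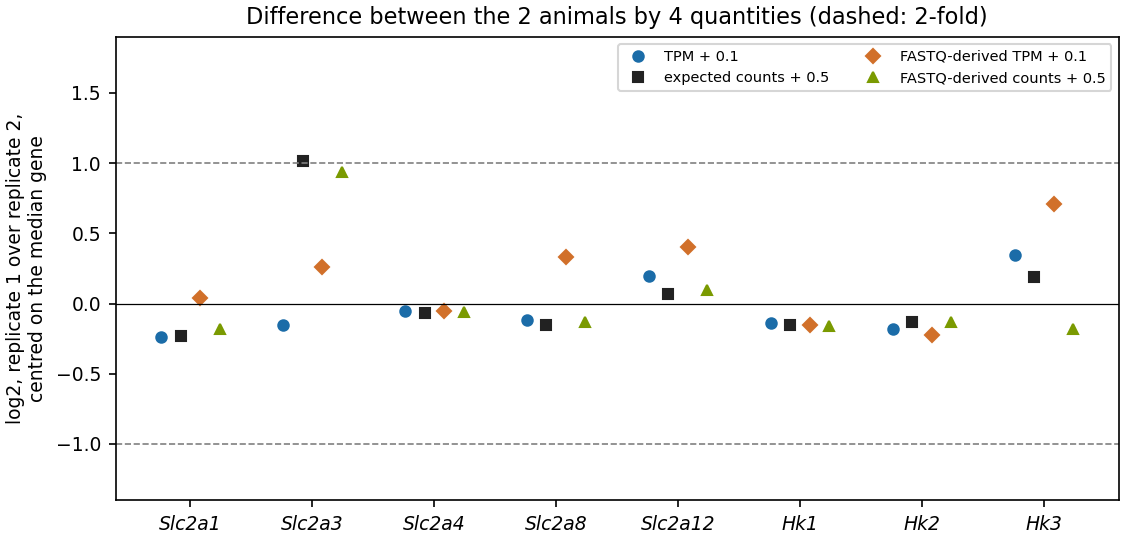
Centred log2 ratio of replicate 1 over replicate 2 (y) for each gene by 4 quantities, with dashed lines at 2-fold. Slc2a3 reaches the upper line by expected counts (1.02), lies just under it by FASTQ-derived counts (0.93) and well below it by TPM, and the other genes lie between the lines by every quantity.

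Between the tables, 0 of the 8 genes were 2-fold apart the same way in both hearts, measured as log2(TPM + 0.1), against 3.07% of the genes compared. Among the 6 genes at 1 TPM or more, the largest difference with the same sign in both animals was that of Hk2, whose log2 ratio of alignment-derived over FASTQ-derived TPM was 0.47 in replicate 1 and 0.39 in replicate 2. Slc2a4, the most abundant, had 0.09 and 0.06. Slc2a12 had 0.17 and 0.34. The most abundant transcript was the same in both kinds of table for 6 of 8 genes and for 5 of the 6 at 1 TPM or more, against 81.3% of the expressed genes with several transcripts. The exceptions were Hk1 and Hk3.

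Short transcripts recurred among the differences. Hk2-202, Slc2a12-202, Slc2a3-208 and Slc2a8-208 are 594, 398, 315 and 360 bases long. Each held a larger share of its gene's TPM than of its counts in at least 1 kind of table. That follows from dividing counts by length and is no finding about these transcripts. In the alignment-derived tables, noncoding or decay-labelled transcripts held 29.6% ± 2.33 of Hk2 TPM, 32.4% ± 2.17 of Slc2a1 TPM, 20.3% ± 5.79 of Slc2a12 TPM and 8.84% ± 0.52 of Slc2a8 TPM. They held 30.4% ± 5.96 of Hk3 TPM and 27.5% ± 34.2 of Slc2a3 TPM, the genes with few counts, and 0.54% of Slc2a4 TPM and 0.25% of Hk1 TPM. In the FASTQ-derived tables these transcripts held 1.61% ± 2.27 of Hk2, 37.0% ± 5.93 of Slc2a1 and 10.3% ± 14.5 of Slc2a12 TPM.

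**Figure D3:**
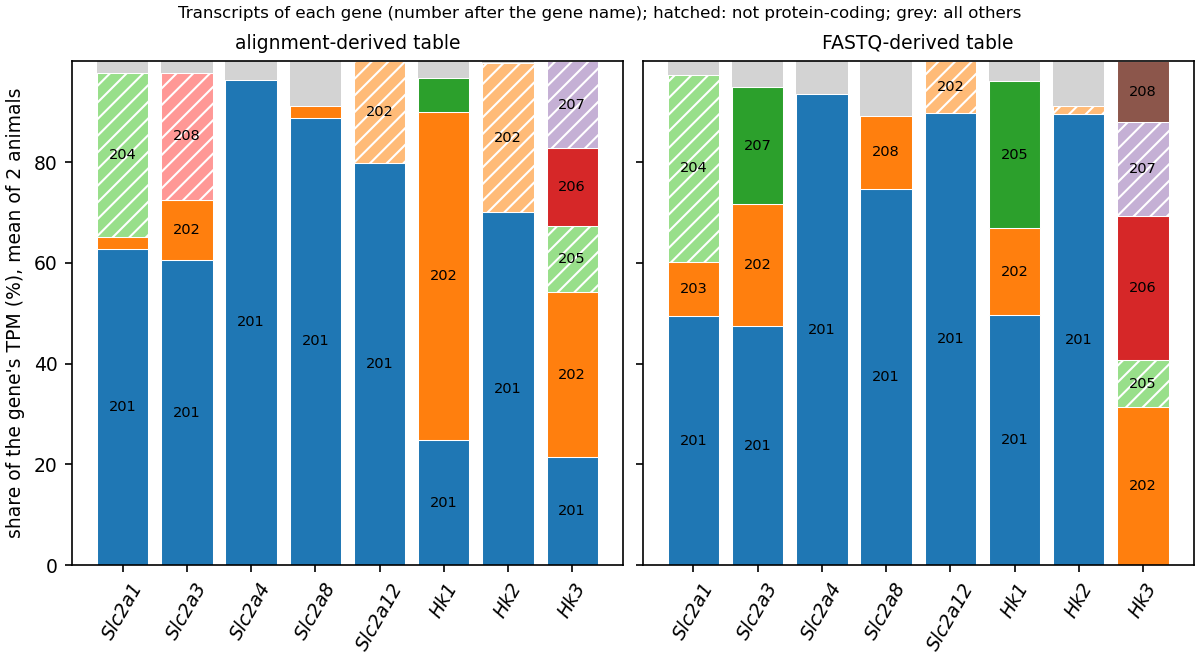
Share of each gene's TPM (y, percent, mean of 2 animals) by transcript, named by the number after the gene symbol, in the alignment-derived tables (left) and the FASTQ-derived tables (right), with hatching for transcripts that are not protein-coding and grey for all others. Hk1-202 takes 65.2% of Hk1 on the left and 17.3% on the right, and Hk2-202 takes 29.6% of Hk2 on the left and 1.61% on the right.

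The genes around uptake and phosphorylation were read from 7 lists of 67 genes in all, of which 50 reached 1 TPM in both animals, against 20.9% of all genes. Of these 50, 0 were 2-fold apart between the animals, against 1.41% of the compared genes. Of the 7 other GLUT genes only Slc2a10 reached 1 TPM, at 2.29 and 2.09 TPM; Slc2a9, a urate transporter, was at 0.46 and 0.35 TPM, Slc2a7 had no count, and the rest were lower than Slc2a9 in replicate 1. Of the 7 sodium-glucose cotransporter genes none did. Slc5a1, which encodes SGLT1, was at 0.07 and 0.13 TPM. Slc5a2, which encodes SGLT2, had 0 expected counts, as had Slc5a4a, Slc5a4b, Slc5a9 and Slc5a10; the FASTQ-derived tables list Slc5a4b at 0.035 and 0.0089 TPM and the other 4 at 0. With 0 counts a level of up to 0.0711 (replicate 1) or 0.0740 (replicate 2) per 1000000 counts is possible from counting error alone. Among the other sugar kinases 4 of 5 reached 1 TPM, led by Khk, the fructose kinase, at 8.82 and 8.37 TPM and Galk1, the galactose kinase, at 5.62 and 4.90 TPM; the hexokinase-like Hkdc1 had 0 expected counts and 0.0077 and 0 FASTQ-derived TPM.

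All 17 genes of GLUT4 vesicle traffic reached 1 TPM, with a median of 21.7 TPM in replicate 1 and 19.9 TPM in replicate 2, against 8.20 and 7.22 TPM over the 11590 genes that reached it. Lnpep, the aminopeptidase that travels in GLUT4 vesicles, led at 66.7 and 55.1 TPM, ahead of Rhoq, a small GTPase, at 44.3 and 41.3 TPM. Of the 8 brakes and regulators of uptake 7 reached 1 TPM. Txnip, which restrains glucose uptake, led at 246 and 182 TPM, above Slc2a4 itself, and Mef2a, a transcription factor of the Slc2a4 gene, was at 51.3 and 42.0 TPM. Myc was at 0.92 and 0.63 TPM.

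Downstream of the hexokinases, 16 of 18 genes of glucose 6-phosphate use reached 1 TPM, with a median of 19.0 and 16.1 TPM. Pfkm, the muscle phosphofructokinase, at 367 and 342 TPM and Gpi1, the isomerase, at 221 and 198 TPM both stood above Hk2. Pfkfb4, a regulator of phosphofructokinase, was at 0.53 and 0.26 TPM, and G6pc, the glucose 6-phosphatase of liver and kidney, at 0.00 and 0.03 TPM. All 5 genes of the docking list were present. Vdac1, a voltage-dependent anion channel, was at 405 and 357 TPM. The list also holds ADP/ATP carriers, which are not that channel, and Slc25a4 among them was its highest gene at 1744 and 1591 TPM. These are levels of RNA per length and say nothing of protein.

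**Figure D4:**
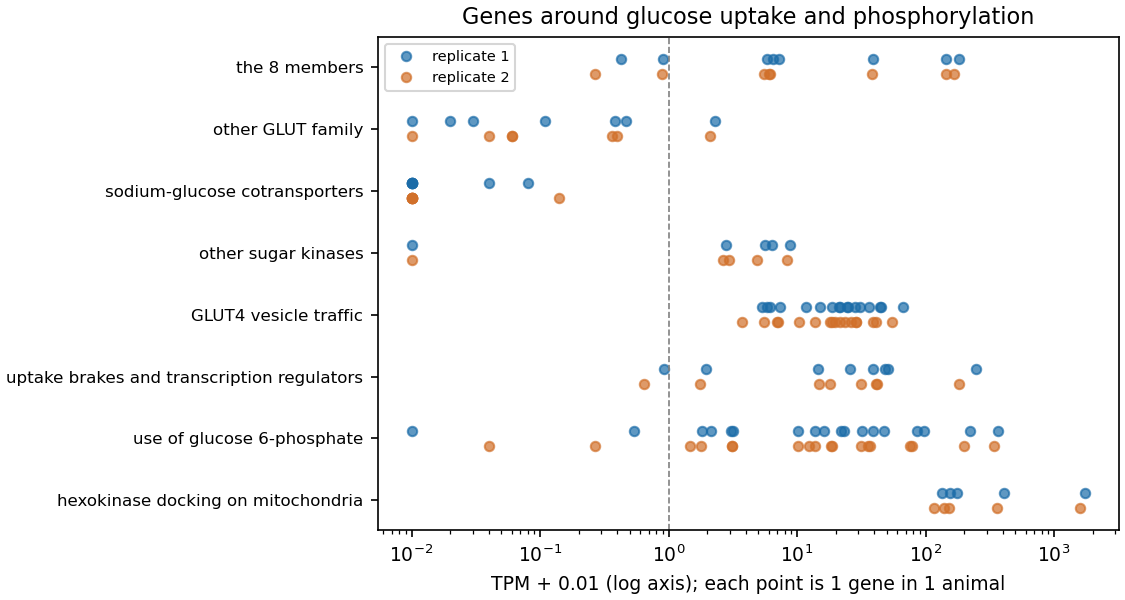
TPM + 0.01 (x, log axis) of every gene of the 8 and of the 7 surrounding lists, 1 point per gene and heart (replicate 1 blue, above, and replicate 2 orange, below), with a dashed line at 1 TPM. The genes of the docking list all lie above 100 TPM, the cotransporters all lie below 1 TPM, and the 8 genes span both sides of the line.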

How the data were processed

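Total RNA-seq of 2 hearts was analysed from tables deposited by the authors. The genome build was mm10, annotated by GENCODE M21, per the description files deposited with them. No source used here gives the aligner or the quantifiers. Per the file headers, the alignment-derived tables hold expected counts and TPM, while TPM and estimated counts make up the FASTQ-derived transcript tables. The alignment-derived ones, per the file headers, add posterior mean TPM, credibility bounds (used as a score, level not given) and isoform percent. Isoform shares in percent were recomputed from the deposited TPM of each table. mm10 is the C57BL/6J genome, so CAST/EiJ reads that differ from it could be lost or misplaced. The alleles were not separated. Both libraries carry the same donor identifier, read here as that of the strain; the labels number the animals separately.

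Depth was 42223411 and 40553237 expected counts, and 43782858 and 41468698 counts in the FASTQ-derived tables. Genes near 1 TPM had a median of 64.0 and 65.0 counts. Reads carry no molecular identifiers, and floors (3 counts) cover counting error only.

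Ratios between animals used TPM + 0.1, or counts + 0.5, in Python 3.11.15 with numpy 2.4.6 and pandas 2.3.3; such ratios understate differences of low genes. Figures used matplotlib 3.10.9. The comparison of animals was also run on simulated counts. These had counting error only and the same effective length in both animals, so they do not cover cases such as Slc2a3. No statement here rests on them. A gene was called expressed at 1 TPM in both animals. Alternatives were posterior mean TPM, counts not divided by length, the FASTQ-derived tables, protein-coding transcripts only, other pseudocounts, thresholds, filters and centring, and each animal alone. A word is a stretch of 31 bases.

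The genes and lists were chosen with earlier results of these data known. The names in the text come from all 8 genes, the 2 highest genes of each list, list genes under 1 TPM in both animals and transcripts with 10% or more of their gene's TPM in either table; other names (Tbpl1, Hk1os, Hk1-203, Hk2-204, Lep, Gp9, Mpo, Elane, Camp) were chosen after their values were seen. Protein sequences were planned but not used here.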

Additional observations from a re-analysis of the deposited data

How the results depend on the processing

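Of 81 alternative values for 14 results, 56 lay within the spread between the animals (for numbers of genes or pairs, within 1.5 times). A further 23 moved further, and 2 reversed the sign of a main value larger than its spread. For shares and ratios, the values with an animal left out are among the 56 by arithmetic. With 2 animals each value lies closer to their mean than the SD, so these values are no check. Ratios smaller than their spread also changed sign without being counted as reversed. Log2 Slc2a12 over Slc2a1 (0.10 ± 0.31) was -0.12 without replicate 1 and -0.29 in the FASTQ-derived tables. The number of genes expressed (6) was 7 by posterior mean TPM and at 0.5 TPM, and that of list genes (50) was 40 at 5 TPM and 51 at 0.5 TPM. By posterior mean, FASTQ-derived and protein-coding TPM alike, 6 of the 7 neighbour pairs kept their order. Counts not divided by length were not among the alternatives for the order. By them the neighbours Slc2a4 and Hk2 reversed, as did Slc2a8 and Slc2a1. The Slc2a4 share of transporter TPM (90.0%) was 89.1% by posterior mean TPM, 89.0% by counts not divided by length, 89.2% in the FASTQ-derived tables and 91.8% over protein-coding transcripts. The Hk2 share of hexokinase TPM (78.8%) was 78.0%, 79.4%, 71.4% and 72.5% in the same order. The log2 ratio of summed transporters over summed hexokinases (0.08) was -0.62 by counts, 0.31 in the FASTQ-derived tables and 0.43 over protein-coding transcripts. By counts not divided by length, log2 Slc2a4 over Hk2 reversed to -0.46 and log2 Slc2a8 over Slc2a1 to -0.43, since counts grow with transcript length. The number of genes 2-fold apart between the animals (0) was 1, Slc2a3, by expected counts with a filter of 20 counts only, an alternative chosen after seeing the data. With each animal left out in turn the shares were 89.95% to 89.96% and 78.5% to 79.1%, and the log2 ratio 0.02 to 0.15. Centring on the ERCC spike-ins, on nothing, and other pseudocounts left the number of genes apart at 0. No paired analysis was possible because both animals belong to 1 group. Slc2a3 and Hk3, with 17 to 108 expected counts per library, are limited by depth, and transcript shares are limited by how few words set the transcripts apart.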
